A study of Mus musculus with 8 samples.

Results

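The genes described are those of respiratory complex I that carry the Nduf prefix, 46 of the 16640 genes in the authors' deposited table of mouse liver RNA. They were taken as every row whose symbol starts with Nduf, and were divided by name into 38 subunits (Ndufa, Ndufb, Ndufc, Ndufs, Ndufv) and 8 assembly factors (Ndufaf). RNA came from whole livers of 4 mice with a liver-specific knockout of Huwe1, a HECT-type ubiquitin ligase (KO), and of 4 wild-type mice (WT). All 8 mice were 1 year old and were kept on chow with free access. The title of the series asks how loss of Huwe1 in the liver changes lipid metabolism and fatty liver disease. The labels name neither the promoter that drove the deletion nor the sex or litter of the mice, and whole liver keeps endothelial, stellate, bile duct and immune cells beside hepatocytes. The table gives 1 normalized expression value per gene and group, so the spread between livers is seen only through the authors' DESeq2 p-values, which imply a standard error for every fold change.

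Complex I is the entry point of electrons from NADH into the mitochondrial respiratory chain. Its matrix arm oxidizes NADH and passes electrons along a row of iron-sulfur clusters to ubiquinone, and its membrane arm pumps protons. A few core subunits, conserved from bacteria, do the chemistry, and accessory subunits surround and stabilize them. Assembly factors join parts of the complex together and are not kept in the finished enzyme. The membrane core is encoded by mitochondrial DNA, and all other subunits are made from nuclear genes and imported. The roles given for single proteins come from work on the human, bovine and mouse enzymes. In hepatocytes the enzyme takes up the NADH formed by fatty acid oxidation and the citric acid cycle.

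Huwe1 itself stood at 1784 in KO livers and 2666 in WT livers in the authors' deposited table, -0.58 on the log2 scale (implied standard error 0.13) with an adjusted p of 0.000425. The group values summed to 17533080 in KO and 17347886 in WT. Albumin, the defining hepatocyte product, made up 9.29% of the KO sum and 6.87% of the WT sum in the deposited table, and the 8 hepatocyte markers summed in KO to 127% of their WT value. Without albumin the other 7 summed to 105% of their WT value, and 3 of the 8 (Apoa2, Tat and Asgr1) had log2 fold changes below 0, with Serpina1a called higher and Apoa2 lower in the authors' deposited table. Markers of other cells summed in KO and WT to 1684 and 1630 for 6 sinusoidal endothelial genes, 7970 and 7419 for 6 stellate genes, 2525 and 2131 for 6 macrophage genes and 1629 and 906 for 6 bile duct genes, with 0 called in these 4 lists by DESeq2 in the authors' deposited table, and 1 of them (Spp1) at an unadjusted p under 0.05. Spp1 made up 1410 of the bile duct sum in KO and 722 in WT, and the other 5 genes summed to 219 in KO and 184 in WT in the deposited table. Lymphocyte markers summed to 64.6 in KO and 50.4 in WT for 3 T and NK cell genes and to 91.3 in KO and 82.1 in WT for 4 B cell genes, with 0 called and 0 at an unadjusted p under 0.05 in the deposited table. The 4 neutrophil markers summed to 123 in KO and 46.8 in WT, and S100a9 and Retnlg among them were called higher in the authors' deposited table. S100a9 alone stood at 79.1 in KO and 25.6 in WT, while Ly6g, the marker most restricted to neutrophils, stood at 5.02 in KO and 7.52 in WT (log2 fold change -0.58, adjusted p = 0.628) in the deposited table. No gene in the deposited table was at 0, and the smallest values of any gene were 0.116 in KO and 0.115 in WT. A value above 0 therefore does not by itself show that a marker had reads in that group. In bulk tissue fewer cells of a type and less RNA per cell cannot be told apart, and the part of cell composition in the complex I values was not tested.

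Most complex I transcripts stood slightly below their WT value in KO livers, few of them by more than their error. In the authors' deposited table, 3 of the 46 genes fell at an adjusted p under 0.05 (6.52%, against 5.56% of all genes called lower) and 0 rose (4.41% of all genes). At an unadjusted p under 0.05, 11 of the 46 lay lower (23.9%, against 10.8% of all genes) and again 0 higher (9.65% of all genes). All 46 had a mean of the 2 group values of 10 or more and 44 of 100 or more. Of all genes in the authors' deposited table at a mean of 100 or more, 9.04% were called lower and 17.2% lay lower at an unadjusted p under 0.05, so the share of calls among the members was near the background. The log2 fold change was below 0 in 38 of the 46 (82.6%), against 46.9% of all genes and 53.2% of those at a mean of 100 or more. With the most abundant eighth of all genes centred at a median of 0 instead, 27 of the 46 (58.7%) lay below 0, against 37.0% of all genes. That 37.0% is not matched for level, since this centring sets the median of the most abundant genes to 0. The share among genes at a mean of 100 or more was not computed for it. With the median of genes of like length and level subtracted, 27 of the 46 (58.7%) again lay below 0, against 49.9% of all genes. Summed over the 46 genes the KO value was 90.9% of the WT value in the deposited table, and the genes' share of all normalized expression was 0.329% in KO and 0.366% in WT.

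The 3 genes that fell were Ndufa10, Ndufs6 and Ndufaf5. Ndufa10 (Entrez ID 67273, chromosome 1, 92439486 to 92473825 in GRCm38) encodes an accessory subunit of the membrane arm with the fold of a nucleoside kinase. The authors' deposited table gives it 1903 in KO livers and 2539 in WT livers, which is 74.9% of the WT level. On the log2 scale it fell by 0.42 (implied standard error 0.11), with a deposited adjusted p of 0.00501, the smallest adjusted p of the 46. Ndufs6 (Entrez ID 407785, chromosome 13, 73319876 to 73328482) encodes a zinc-binding accessory subunit of the NADH-oxidizing end of the matrix arm. It stood at 840 in KO livers and 1088 in WT livers, 77.2% of the WT level, -0.37 on the log2 scale (standard error 0.11) with an adjusted p of 0.0107, in the authors' deposited table. Ndufaf5 (Entrez ID 69487, chromosome 2, 140170584 to 140218965) encodes an assembly factor that in human cells hydroxylates an arginine of the core subunit NDUFS7. It had the lowest level per kilobase of the 46 and stood at 45.6 in KO livers and 73.4 in WT livers in the authors' deposited table, 62.1% of the WT level. Its log2 fold change of -0.69 was the lowest of the 46, with the larger implied standard error of 0.22 and a deposited adjusted p of 0.022. The next smallest adjusted p belonged to Ndufb8, at 0.0869 in the authors' deposited table.

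The calls of Ndufs6 and Ndufaf5 depend on the zero point chosen. When the most abundant eighth of all genes was given a median of 0, Ndufa10 passed (adjusted p = 0.0341), Ndufaf5 did not (adjusted p = 0.0508) and Ndufs6 did not (adjusted p = 0.0652). These adjusted p-values come from the shifted fold change over the implied standard error, with Benjamini-Hochberg adjustment over all genes.

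The sequences upstream of the 3 genes that fell are shown beside that of Ndufs3, a core subunit with a log2 fold change of 0.01, so that the upstream regions of called and uncalled members can be read together. Nuclear genes of the respiratory chain are known targets of the transcription factors NRF1, GABPA, the ERR receptors and YY1. Each run gives the 250 bases before the gene's start in RefSeq (GRCm38.p6), 5′ to 3′ on the gene's strand. For Ndufa10 and Ndufaf5 this start lies inside the gene span given above. Capitals mark a match on either strand to GCGCANGCG for NRF1, CCGGAAGT for GABPA, AAGGTCA for the ERR receptors or AANATGGCG for YY1.
Ndufa10 (chr1:92473759-92474008, minus strand): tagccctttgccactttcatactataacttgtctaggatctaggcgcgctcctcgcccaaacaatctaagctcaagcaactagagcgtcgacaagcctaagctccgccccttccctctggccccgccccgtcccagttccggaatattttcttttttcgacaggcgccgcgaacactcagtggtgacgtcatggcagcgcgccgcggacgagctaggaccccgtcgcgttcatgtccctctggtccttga
Ndufs6 (chr13:73328483-73328732, minus strand): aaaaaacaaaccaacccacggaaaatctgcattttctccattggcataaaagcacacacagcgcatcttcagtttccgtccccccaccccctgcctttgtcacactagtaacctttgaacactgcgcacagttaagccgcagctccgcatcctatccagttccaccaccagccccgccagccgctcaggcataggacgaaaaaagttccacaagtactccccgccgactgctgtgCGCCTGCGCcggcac
Ndufaf5 (chr2:140170396-140170645, plus strand): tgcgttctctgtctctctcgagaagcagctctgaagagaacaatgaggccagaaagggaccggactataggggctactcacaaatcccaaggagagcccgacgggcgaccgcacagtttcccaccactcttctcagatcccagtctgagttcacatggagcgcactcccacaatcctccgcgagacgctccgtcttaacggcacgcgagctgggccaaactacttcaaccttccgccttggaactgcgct
Ndufs3 (chr2:90904722-90904971, minus strand): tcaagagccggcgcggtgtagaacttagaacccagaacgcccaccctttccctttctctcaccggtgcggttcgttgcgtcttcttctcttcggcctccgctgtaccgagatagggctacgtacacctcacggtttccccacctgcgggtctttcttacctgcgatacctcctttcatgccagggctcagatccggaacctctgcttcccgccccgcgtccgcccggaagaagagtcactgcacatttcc
Of these 4 windows, that of Ndufs6 alone held a match, 1 NRF1 motif that begins 15 bases before the start. Across the members, 40 had a window in the RefSeq table, and 7 of them (17.5%) held the NRF1 motif, against 10.3% of the 13190 genes of the deposited table with a window. Those 7 were Ndufa5, Ndufa8, Ndufa11, Ndufb4, Ndufs5, Ndufs6 and Ndufaf4. Ndufs6 is the 1 of them that was called in the authors' deposited table, and the log2 fold changes of the others ran from -0.27 for Ndufs5 to 0.06 for Ndufb4. The ERR motif was found in 3 members (7.5%, against 3.92% of the table's genes), the YY1 motif in 2 (5%, against 2.02%) and the GABPA motif in 0 (against 5.43%). A match describes letters in these windows and says nothing about binding.

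**Figure D1:**
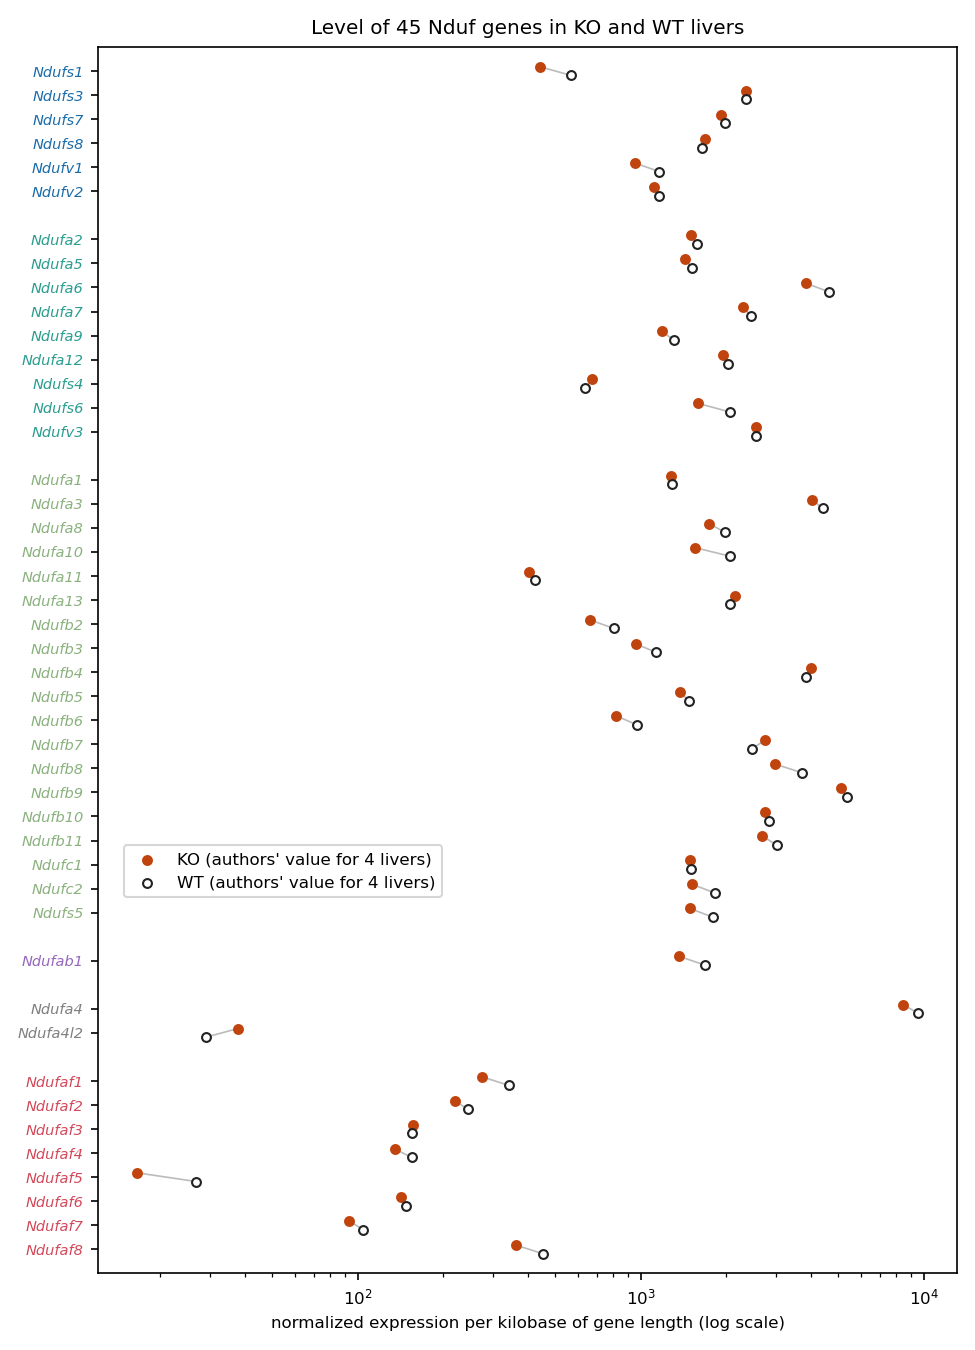
Normalized expression per kilobase of gene length (log axis) for 45 of the 46 Nduf genes, with the authors' KO value (filled) drawn just above their WT value (open), each 1 value for 4 livers with no spread. In KO livers every accepted subunit drawn, at 402 or more, lies right of every assembly factor, at 362 or less, and the largest gap between KO and WT is that of Ndufaf5, at 16.7 in KO and 26.9 in WT.

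Levels between genes were compared per kilobase of the deposited gene length. Subunits had a median of 1541 per kilobase in KO livers and 1811 in WT livers in the authors' deposited table, and assembly factors 149.6 in KO and 155 in WT. The lowest of the 35 accepted subunits was Ndufa11, a membrane-arm subunit, at 402 per kilobase in KO and 422 in WT, and the highest was Ndufb9, at the far end of the membrane arm, at 5105 in KO and 5364 in WT, both from the deposited values and lengths. Among assembly factors the highest was Ndufaf8, the partner protein of NDUFAF5, at 362 per kilobase in KO and 451 in WT. The deposited length of Ndufa11, 2661 bases, is longer than its 1092 exon bases in the GENCODE M21 annotation, so its place as the lowest depends on that length. Without values per liver, neighbours in this order could not be told apart by their spread.

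The 7 nuclear core subunits carry the redox centres and the quinone site. None of the 7 passed in the authors' DESeq2 result, against 9.97% of all genes. At its unadjusted p under 0.05, 1 (Ndufs1, 14.3%) was lower, against 10.8% of all genes. The median log2 fold change of the 7 was -0.06. Ndufs1, which holds several of the iron-sulfur clusters, stood at 1206 in KO and 1552 in WT, -0.36 on the log2 scale (standard error 0.15) with an adjusted p of 0.122, in the authors' deposited table. Ndufv1, which binds NADH and the flavin, stood at 1531 in KO and 1872 in WT, -0.29 on the log2 scale with a deposited adjusted p of 0.285. Another 4 core subunits stood between 96.0% and 103% of their WT value in the authors' deposited table. Ndufv2, an iron-sulfur subunit next to NDUFV1, stood at 1720 in KO and 1792 in WT, and Ndufs7, which carries the last iron-sulfur cluster before ubiquinone, at 1453 in KO and 1510 in WT in the deposited table. Ndufs3, a core subunit of the quinone module, stood at 2219 in KO and 2208 in WT, and the iron-sulfur subunit Ndufs8 at 1406 in KO and 1367 in WT in the authors' deposited table. For Ndufs3 the 95% interval of the log2 fold change ran from -0.23 to 0.25, and for Ndufs8 from -0.26 to 0.34, so small changes of either sign were not resolved.

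Of the 9 accessory subunits of the matrix arm, 1 fell (Ndufs6, 11.1%, against 5.56% of all genes) and 8 did not pass. The median log2 fold change of the 9 was -0.08 in the authors' deposited table. Ndufa6, a small subunit at the base of the arm that binds the acyl carrier protein, had the highest level per kilobase of this class. It stood at 2142 in KO and 2592 in WT in the deposited table, a log2 fold change of -0.28 (adjusted p = 0.106). Ndufs4, a stabilizing subunit whose loss causes Leigh-like disease in mice, had the highest fold change of the class, at 1033 in KO and 976 in WT (log2 fold change 0.08, adjusted p = 0.847) in the authors' deposited table. The remaining 6, among them Ndufa9, Ndufa12 and Ndufv3, had log2 fold changes from -0.14 to 0.00 in the deposited table.

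Of the 19 accessory subunits of the membrane arm, 1 fell (Ndufa10, 5.26%, against 5.56% of all genes) and 18 did not pass. The median log2 fold change of the 19 was -0.12 in the authors' deposited table. The class spans the arm from Ndufa8 and Ndufa13 beside the matrix arm to the Ndufb proteins at the far end. Ndufb7, a subunit of the outer face, had its highest log2 fold change, 0.15 (adjusted p = 0.718), at 1468 in KO and 1322 in WT in the deposited table. Ndufb9 stood at 3323 in KO and 3492 in WT, and Ndufa11 at 1070 in KO and 1123 in WT, with log2 fold changes of -0.07 each in the authors' deposited table. Ndufb8, a far-arm subunit that is often measured as a sign of assembled complex I, stood at 1950 in KO and 2425 in WT (log2 fold change -0.31, adjusted p = 0.0869) in the deposited table. Ndufc2, near the middle of the arm, stood at 1055 in KO and 1267 in WT (log2 fold change -0.26, adjusted p = 0.138) in the authors' deposited table. Ndufb8 and Ndufc2 were named after their values were seen.

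Among the subunits by name, 3 are not, or not only, complex I subunits. Ndufab1, the mitochondrial acyl carrier protein that also serves fatty acid and lipoic acid synthesis, stood at 1097 in KO and 1351 in WT, a log2 fold change of -0.30 (adjusted p = 0.176) in the authors' deposited table. Ndufa4, now counted as a subunit of complex IV, had the highest level per kilobase of the 46, 8458 in KO and 9550 in WT, from values of 4161 in KO and 4699 in WT (log2 fold change -0.18, adjusted p = 0.393) in the deposited table. Its hypoxia-responsive paralogue Ndufa4l2 stood at 37.2 in KO and 28.7 in WT (log2 fold change 0.37, adjusted p = 0.541) in the authors' deposited table. Its 95% interval, from -0.18 to 0.93, was the one that reached highest among the 46.

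**Figure D2:**
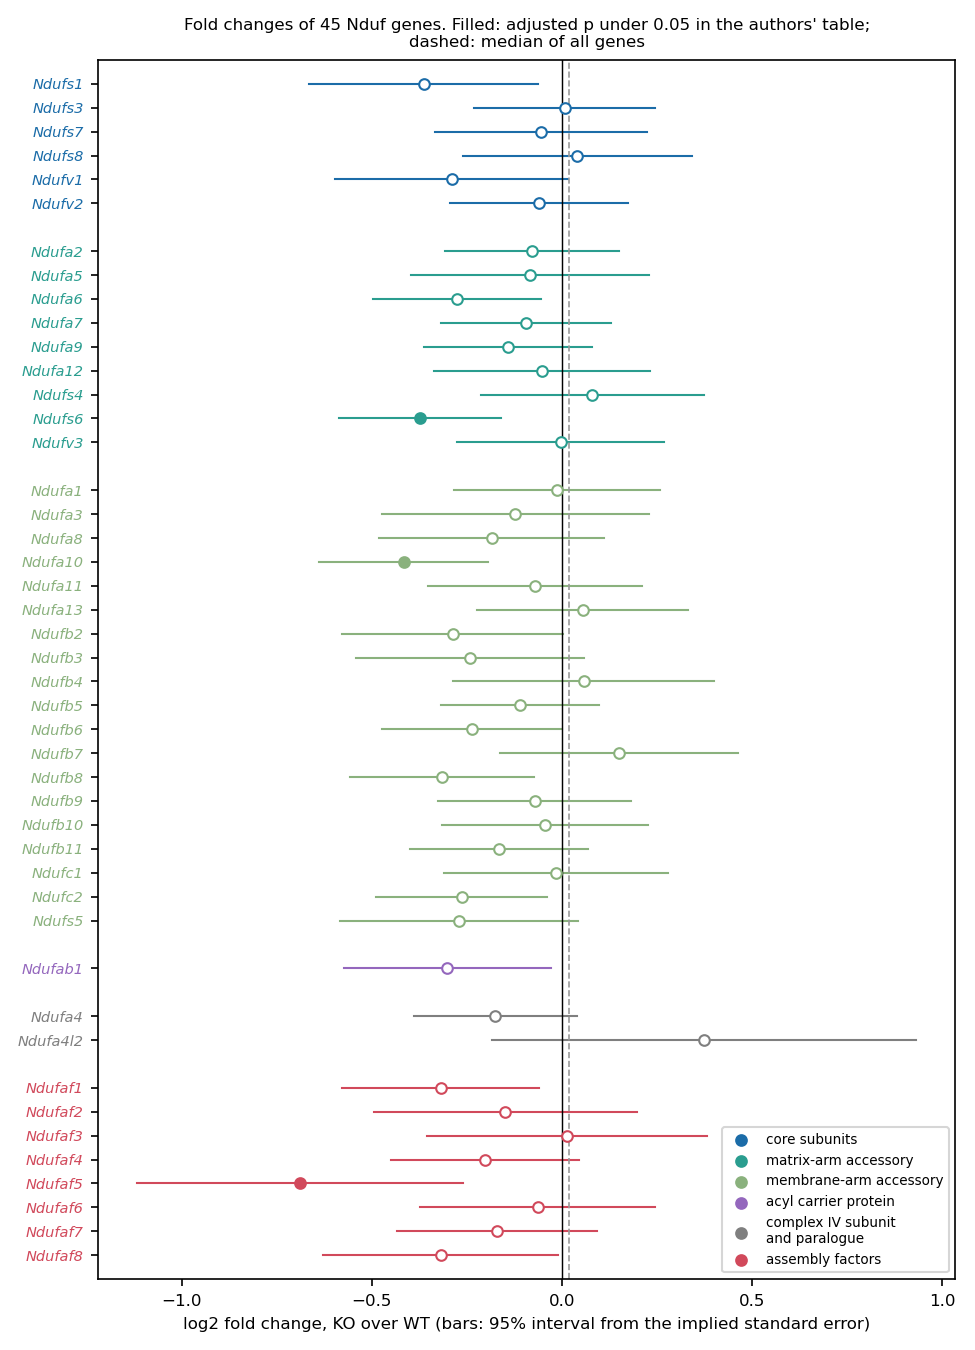
KO over WT on the log2 scale for 45 of the 46 Nduf genes, coloured by role, with the 95% interval from the implied standard error (bars), filled where the authors' adjusted p was under 0.05; the dashed line is the median of all genes, 0.02. Most points lie left of 0, the bars of 34 genes span 0, and the 3 filled points are Ndufs6, Ndufa10 and Ndufaf5.

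Of the 8 assembly factors, 1 fell (Ndufaf5, 12.5%, against 5.56% of all genes) and 7 missed the threshold in the authors' deposited table. Ndufaf8, which binds and stabilizes NDUFAF5, stood at 179 in KO and 223 in WT, -0.32 on the log2 scale (standard error 0.16) with an adjusted p of 0.225, in the deposited table. Ndufs7, the subunit on which NDUFAF5 acts, had a log2 fold change of -0.05 (adjusted p = 0.894) in the authors' deposited table. Ndufaf1, a member of the complex that builds the ND2 part of the membrane arm, stood at 376 in KO and 469 in WT (log2 fold change -0.32, adjusted p = 0.113) in the deposited table. Ndufaf3 and Ndufaf4 work together on the quinone module. Ndufaf3 stood at 171 in KO and 169.6 in WT (log2 fold change 0.01), and Ndufaf4 at 491 in KO and 564 in WT (log2 fold change -0.20, adjusted p = 0.397) in the authors' deposited table. Ndufaf7, a mitochondrial methyltransferase, stood at 214 in KO and 241 in WT in the deposited table. Ndufaf6 stood at 154 in KO and 161 in WT, and Ndufaf2, which holds the place of NDUFA12 late in assembly, at 153.9 in KO and 170.6 in WT in the authors' deposited table. Of the 8, Ndufaf3 alone had a KO value above its WT value.

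Subunits and assembly factors had close median fold changes. The median log2 fold change was -0.19 for the 8 assembly factors and -0.10 for the 38 subunits, a difference of -0.08, and both stood below the median of all genes, 0.02, in the authors' deposited table. The standard deviation across genes was 0.21 among assembly factors and 0.16 among subunits. The median implied standard error of a single gene was 0.16 for assembly factors and 0.14 for subunits. The spread among genes was thus near the error of a single gene for subunits. For assembly factors it was larger, but that spread includes Ndufaf5, at -0.69 with an implied standard error of 0.22. The remaining assembly factors ran from -0.32 to 0.01. Whether the spread differs from the error was not tested. Summed values in KO were 86.1% of WT for assembly factors and 91.1% of WT for subunits in the deposited table. By the authors' adjusted p, 1 of 8 assembly factors (12.5%) and 2 of 38 subunits (5.26%) were called, all lower. The share called lower was 5.56% of all genes and 9.04% of those at a mean of 100 or more. The difference between the classes was not tested, since genes are not replicates of a condition.

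**Figure D3:**
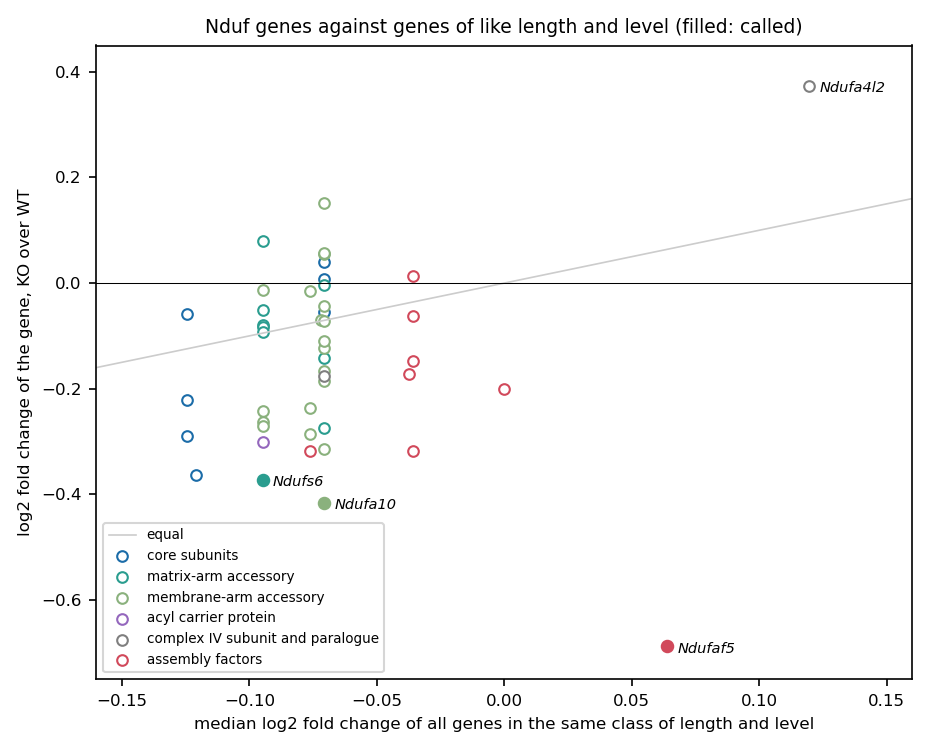
Log2 fold change of each Nduf gene (vertical axis) against the median log2 fold change of all genes in its class of length and level (horizontal axis), coloured by role and filled where called; the grey line marks equal values. Most subunits have class medians between -0.12 and -0.07, scattered on both sides of the line, and Ndufaf5 lies far below it.

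Complex I subunits are short and abundant, and the median log2 fold change of genes of like length and level was slightly below 0 for most of them. Their median deposited length was 716 bases, against 2732 bases for all genes. All genes were placed in 5 classes of length and 10 classes of mean value, and the median log2 fold change of the class was set beside each member, as in the plot of members against genes of like length and level. The median of these class values was -0.07 for the subunits. The classes include the members themselves and nuclear subunits of the other complexes, so part of any shift that these genes share may be subtracted too. With the class median subtracted, the subunits' own median log2 fold change was -0.02, and that of the 35 accepted subunits was 0.00. That of the assembly factors, which are less abundant and mostly longer, was -0.17. Ndufaf5 (adjusted p = 0.0106) and Ndufa10 (adjusted p = 0.0307) passed after this subtraction and Ndufs6 did not (adjusted p = 0.092).

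Several assembly factors that do not carry the Nduf prefix fell. Of 14 listed, 13 had a row in the authors' deposited table, and 4 of these fell and 0 rose (30.8% called, against 9.97% of all genes), with a median log2 fold change of -0.32. By DESeq2 0 were higher at an unadjusted p under 0.05 as well. Acad9, an acyl-CoA dehydrogenase family member needed to build complex I, stood at 511 in KO and 813 in WT, 62.8% of the WT level (-0.67 on the log2 scale, implied standard error 0.13, with an adjusted p of 3.26e-05) in the deposited table. Its partner Ecsit stood at 712 in KO and 983 in WT (log2 fold change -0.46, adjusted p = 0.0109) in the authors' deposited table. Both form with NDUFAF1 and TMEM126B the complex that builds the ND2 part. Tmem70, a factor for complexes I and V, stood at 494 in KO and 632 in WT (log2 fold change -0.36, adjusted p = 0.022), and Aifm1, which drives import of small mitochondrial proteins through CHCHD4, at 1198 in KO and 1541 in WT (log2 fold change -0.36, adjusted p = 0.0426), in the deposited table. With class medians of length and level subtracted, Acad9 passed (adjusted p = 4.24e-05) and Ecsit (0.0641), Tmem70 (0.11) and Aifm1 (0.286) did not, by adjusted p. After centring on the most abundant eighth, Acad9 and Ecsit passed (adjusted p = 0.000398 and 0.0471) and Tmem70 and Aifm1 did not (adjusted p = 0.105 and 0.15). These checks of genes without the prefix were chosen after the data were seen. Coa1 was the listed factor without a match.

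**Figure D4:**
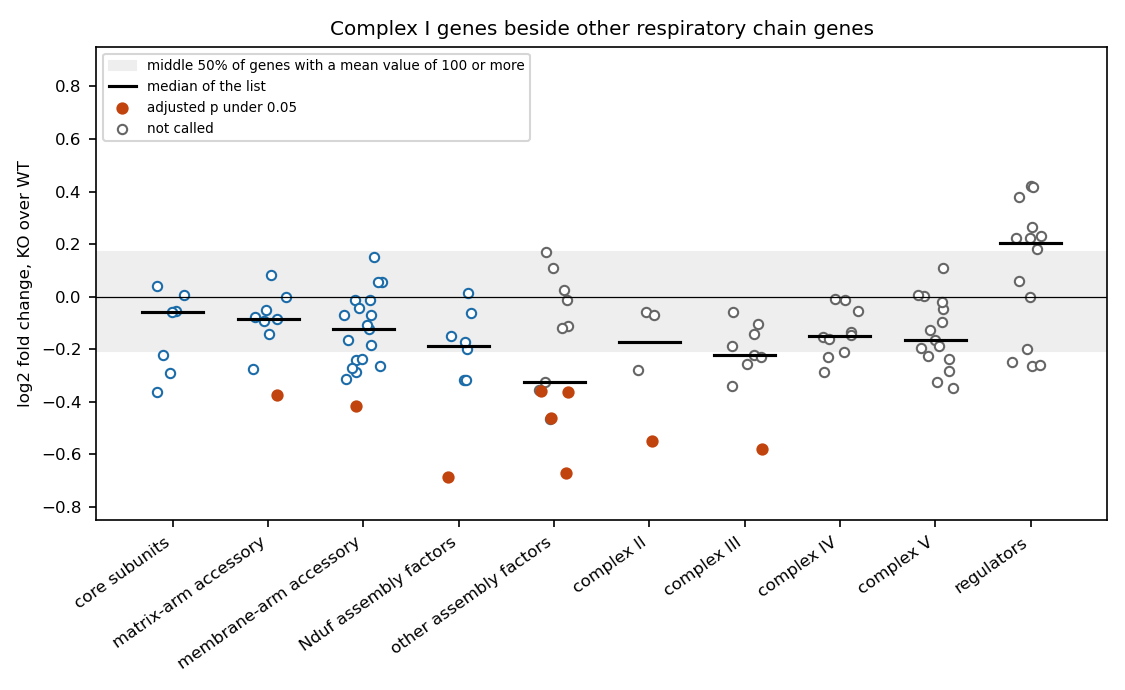
KO over WT on the log2 scale for each gene of the lists named on the horizontal axis, with the list median (bar), genes called at an adjusted p under 0.05 (filled) and the middle 50% of genes with a mean value of 100 or more (grey band). All called genes lie below 0, 4 of them among the assembly factors without the Nduf prefix, where the list median is -0.32. The medians of the other 4 complex I classes drawn and of complexes II to V lie between -0.22 and -0.06.

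The nuclear subunits of the other complexes also lay mostly a little below their WT values. Their median log2 fold change was -0.17 for 4 genes of complex II, -0.22 for 9 of complex III, -0.15 for 10 of complex IV and -0.17 for 15 of ATP synthase, beside -0.10 for the complex I subunits, in the authors' deposited table. Sdha, the flavin subunit of complex II, fell to 4137 in KO, against 6057 in WT (log2 fold change -0.55, adjusted p = 0.0127), and Uqcr11, a small subunit of complex III, fell to 2498 in KO, against 3736 in WT (log2 fold change -0.58, adjusted p = 0.0156), in the deposited table. The call of Sdha was lost when class medians were subtracted (adjusted p = 0.0799). In complexes IV and V 0 genes were called by DESeq2, against 9.97% of all genes. At DESeq2's unadjusted p under 0.05, 1 gene of complex II (25%) and 4 of complex III (44.4%) were lower. So were 2 of complex IV (20%) and 3 of complex V (20%), and 0 were higher. The share lower at this threshold was 10.8% of all genes and 17.2% of those at a mean of 100 or more. Of 14 regulators of nuclear respiratory genes, such as Ppargc1a, Nrf1, Esrra and Tfam, 0 passed in DESeq2's deposited result, against 9.97% of all genes. At its unadjusted p under 0.05, 3 of the 14 were higher and 1 was lower (7.14%). Higher at this threshold were 1606 of all 16640 genes (9.65%) and 1122 of the 8793 at a mean of 100 or more. Lower were 10.8% and 17.2% of these 2 sets. The median log2 fold change of the 14 regulators was 0.20. None of the 7 mitochondrially encoded subunits listed had a row in the table, so the membrane core was not analysed here.

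Some values are uncertain because genes share sequence. RefSeq (GRCm38.p6) holds 8 other Nduf entries with no row in the table. Ndufs6b, Ndufs5-ps, Ndufa12-ps, Ndufab1-ps, Ndufa11b, Ndufb4b and Ndufb4c are by their names copies of listed members, and the sources used here do not give how shared reads were assigned. The remaining entry, Ndufb1, is a protein-coding gene on chromosome 12 that is not by its name a copy. The subunits described here therefore leave out Ndufb1. In GENCODE M21 the exons of 19 of the 46 genes overlap exons of another gene, most on the opposite strand. The overlap is 66% of exon bases for Ndufaf2 (with B230220B15Rik), 39% for Ndufb6 (with Smim27), 30% for Ndufa13 (with Tssk6) and 3.34% for Ndufs6 (with Mrpl36), and it is absent for Ndufa10 and Ndufaf5. The sources used here do not give whether counting used strand. The annotation terms in the deposited table place 36 of the 46 genes in respiratory chain complex I, and the 10 without the term are the 8 assembly factors, Ndufa4l2 and Ndufa11. The members lie on 17 chromosomes. Over the 46 genes the log2 fold change had a Pearson r of 0.00 and a Spearman rho of 0.08 with log2 mean value, and of -0.23 and -0.15 with log2 length, given as a description of genes that share the same libraries.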

How the data were processed

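Whole liver RNA of 4 KO and 4 WT mice was sequenced, and titles gave each sample's group. The submitters' processing notes name mm10 as the genome and DESeq2, without a version, as a tool. The sources used here name no aligner, counting step or filter. The authors deposited 1 table with, per the file headers, gene length, a normalized expression signal in each of the 2 groups, DESeq2's p-values before and after adjustment, and the log2 fold change (KO/WT). The deposited log2 fold change equals the log2 ratio of the 2 signals to within 4.71e-08, and Benjamini-Hochberg adjustment over the 16640 genes gave the deposited adjusted p-value to within 1.74e-06.

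The 707 genes with the least signal have 8 distinct totals over the 8 livers, between 0.955 and 1.04, as a single read divided by 8 size factors would give. Their deposited log2 fold changes are 0.11 to 0.12 in size, so fold changes of low genes appear shrunken toward 0, which no source used here states. Depth and values per liver are unknown. The count model planned for values per liver could therefore not be fitted, and a gene was called where the authors' adjusted p was under 0.05. The labels do not say how the livers were collected, and p-values measure the spread among these 8.

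The standard error of a log2 value was its size over the normal score of the two-sided p, which assumes a Wald test. The arithmetic of this step was tested on simulated data, and the assumption itself was not tested. Intervals are 95% from this error. Genes were named by rule: called Nduf genes, core subunits, extremes of fold change and of level per kilobase in each class, and called genes of the other lists. The values of 1 member are not reported here by name, and it is kept in the counts. Members and lists were chosen with earlier results of these data known. Genes were matched by symbol, and coordinates are RefSeq's for GRCm38, counted from 1. Alternatives were other thresholds, a filter on low values, other centrings, subtraction of class medians and a narrower membership. Computation used scipy 1.17.1, pandas 2.3.3, numpy 2.4.6 and matplotlib 3.10.9 under Python 3.11.15.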

Additional observations from a re-analysis of the deposited data

How the results depend on the processing

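No paired analysis was possible because the table holds 1 value per group, and for the same reason no liver could be left out and no other count model was run. The 3 Nduf genes called lower became 1 at an adjusted p under 0.01 (Ndufa10), 11 at an unadjusted p under 0.05, and 1 with fold changes centred on the most abundant eighth of genes (Ndufa10). They were 4 at an adjusted p under 0.1 and 2 after subtraction of class medians of length and level. The count of 3 was also found with p adjusted over genes at a mean value of 10 or more, with centring on the median of all genes, and with accepted complex I members only. The count called higher was 0 under all 8 of these alternatives. Of 60 values for 20 named Nduf genes under the 3 other centrings, 3 lost their call, 0 gained a call and 0 called values changed sign, while 6 of these genes that were not called had a sign change. The same centrings, chosen after seeing the data for the called genes of other lists, ended the calls of Ecsit and Sdha (class medians) and of Tmem70 and Aifm1 (class medians and most abundant eighth). The subunits' median log2 fold change ran from -0.12 to -0.02 and the assembly factors' from -0.24 to -0.10, and the difference of assembly factors minus subunits ran from -0.15 to -0.06 under the alternatives tried. The summed KO value ran from 91.1% to 91.6% of WT for subunits and from 85.8% to 86.1% for assembly factors. The most abundant eighth of genes had a median log2 fold change of -0.08, and centring on it turned 925 lower and 734 higher calls over all genes into 625 lower and 1168 higher. Depth per liver is unknown. The 2 largest implied standard errors of the members, 0.28 for Ndufa4l2 and 0.22 for Ndufaf5, belong to the 2 with the lowest levels per kilobase.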
